A study of Mus musculus with 4 samples.

Results

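The ribosomal protein genes were taken as the genes whose symbols begin with Rpl or Rps followed by a digit, a, p or sa, leaving out the Rps6k kinases, Rps19bp1 and copies marked -ps. This gave 85 of the 32285 genes counted in each library, 52 for the large subunit (Rpl) and 33 for the small subunit (Rps). The cells came from mouse brain hemispheres opposite to an injection, dissociated with an adult brain dissociation kit and counted with droplet 3′ single-cell RNA sequencing. Each of the 4 groups was 1 library of mice taken 2 weeks after the injection. Their strain is labelled C57BL/6 for old tumour, C57BL/8 for young tumour, C57BL/7 for old sham and C57BL/9 for young sham, names that differ only in the last digit. The old tumour library came from mice of 93 weeks and the young tumour library from mice of 8 weeks, both injected with 1000 cells of the murine glioma line CT2A-GFP-luc. The old sham library (93 weeks) and the young sham library (8 weeks) came from mice given PBS. How many mice each library held was not given. With 1 library per group nothing between groups could be tested, and the intervals below cover counting error only.

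The ribosomes of the cytoplasm have a large and a small subunit, and the proteins of both are encoded by this family and a few genes with other symbols. Nearly all of the proteins are needed in equal amounts, and the family's mRNAs are short, stable and among the most abundant of most cells. Most of these mRNAs start with a C followed by an unbroken run of pyrimidines, the 5′ terminal oligopyrimidine (TOP) tract, through which the mTORC1 kinase and the RNA-binding protein LARP1 set how strongly they are translated. A few genes have a paralog: Rpl22l1 beside Rpl22, Rps27l beside Rps27, Rpl36al beside Rpl36a and Rpl7l1 beside Rpl7.

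Start sites in RefSeq (GRCm38.p6) were found for 65 of the 85 genes. The sequences below cover 10 bases before and 20 bases from the start, with the TOP tract (C followed by at least 4 C or T) in capitals. Rps21, Rps27l and Rpl22 have 2 annotated start sites each, of which 1 is shown. The sites of Rps21 and Rps27l that are not shown have no tract within 5 bases of the start. Genes with a tract are over-represented among the windows shown, since 46.2% of the 65 genes had one within 5 bases of a start. The first 4 genes are among those named below for their ratios between libraries. Rps27 and Rps27rt are a gene and its near-identical copy. Rps27l and Rpl22l1 are the genes whose share of the family differed most between cell types, and Rpl22 is the partner of Rpl22l1.
Rpl35 (chr2:39005112-39005141, minus strand): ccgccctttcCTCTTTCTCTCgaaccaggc
Rpl38 (chr11:114668570-114668599, plus strand): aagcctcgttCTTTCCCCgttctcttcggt
Rps21 (chr2:180257369-180257398, plus strand): aggacccgccCTCCTgcccaatagtgctgc
Rplp2 (chr7:141447641-141447670, plus strand): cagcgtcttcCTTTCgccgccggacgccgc
Rps27 (chr3:90213629-90213658, minus strand): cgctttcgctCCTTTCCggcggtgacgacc
Rps27rt (chr9:114982720-114982749, minus strand): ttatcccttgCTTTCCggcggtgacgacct
Rps27l (chr9:66946076-66946105, plus strand): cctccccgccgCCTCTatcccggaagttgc
Rpl22l1 (chr3:28805498-28805527, plus strand): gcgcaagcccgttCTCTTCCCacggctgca
Rpl22 (chr4:152325716-152325745, plus strand): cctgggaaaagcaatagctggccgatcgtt
A tract began exactly at the annotated start in 14 of the family's 77 start sites (18.2%), against 2.51% of all 32851 start sites and 0 of the 75 start sites of mitochondrial ribosomal protein genes. Within 5 bases of the start, on the transcribed strand, the shares were 41.6% in the family, 18.3% in all start sites and 22.7% in mitochondrial ribosomal protein genes. The windows of Rps27 and Rps27rt hold the same letters after their tracts, and their transcripts share a stretch of 307 identical bases, so reads cannot be told apart reliably between these 2 genes and the values of both are uncertain. No such tract lies near either annotated start of Rpl22, which says nothing beyond these letters.

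The libraries held 62726818 to 76652484 UMIs (counted mRNA molecules), and 40390 of 46097 barcodes were kept as cells. Median depth was 4858 UMIs per cell in old tumour and 3773 in young tumour, against 4731 in old sham and 3920 in young sham cells. Pairs of libraries shared 27 to 53 barcodes. One library stood apart: 397 of the 10461 young tumour cells passed the gate for Hmga2, Igf2bp2, Igf2bp3, Cd44, Mki67, Top2a and Lgals1, against 1 old tumour, 0 old sham and 2 young sham cells. Another difference touched every cell type: Gm42418 and AY036118, genes that overlap ribosomal RNA, took 3.63% of UMIs in old tumour and 2.63% in young tumour, against 1.18% in old sham and 3.54% in young sham cells.

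Of the 85 genes, 84 had at least 1 UMI in each library and 82 reached 10 CPM (counts-per-million scale, relative to the library's total of UMIs). The other 3 are Rpl10l, known from testis, which was at 0, Rpl39l, also known from testis, at 0.928 to 1.53 CPM, and Rpl3l, known from heart and skeletal muscle, at 0.147 to 0.255 CPM. The paralog Rps4l is not among the genes of these files. Of the ribosomal proteins with other symbols, Fau, which fuses a ubiquitin-like protein to a small-subunit protein, had 1927 CPM in old tumour and 2893 in young tumour, against 2087 in old sham and 1689 in young sham cells. Rack1, a scaffold on the small subunit, had 647 and 1257 CPM in old and young tumour, against 633 and 628 CPM in old and young sham cells. Both were highest in the young tumour library.

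The share of UMIs that came from the family differed several-fold between cell types. Cells were gated by marker genes (at least 3 of 7 markers of a type and at least 2 times the count of any other type's), and 10 types had at least 50 cells in every library. Averaged over the 4 libraries, the share was lowest in astrocyte-like cells at 2.61% ± 0.171, followed by neuron-like cells at 4.16% ± 0.333, oligodendrocyte-like cells at 4.93% ± 0.306 and pericyte-like cells at 5.74% ± 1.02 (SD, n = 4 libraries). It was 6.64% ± 0.420 in ependymal-like cells, 6.66% ± 0.495 in epithelium-like cells of the choroid plexus (choroid plexus-like below) and 9.66% ± 0.656 in endothelial-like cells. The highest shares were 12.02% ± 1.64 in microglia-like cells, 12.5% ± 1.08 in border-associated macrophage-like cells and 14.5% ± 0.686 in neuroblast-like cells.

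Each of the 10 types stood on the same side of the mean of the other types in all 4 libraries. Neuroblast-like cells exceeded it by 7.26 percentage points ± 0.411 and astrocyte-like cells lay 5.92 percentage points below it (a difference of -5.92 ± 0.592, SD, n = 4). The exact two-sided sign-flip test gave p = 0.125 for every type, also after Benjamini-Hochberg adjustment over the 10 types, which is the smallest value that 4 libraries allow. Neighbours in the order that did not keep their order in all libraries were pericyte-like over oligodendrocyte-like cells (3 of 4 libraries), ependymal-like over pericyte-like (3 of 4), choroid plexus-like over ependymal-like (2 of 4) and border-associated macrophage-like over microglia-like cells (3 of 4). The transthyretin gene Ttr alone took 27.8% to 29.1% of the UMIs of choroid plexus-like cells. Without each type's leading gene and mitochondrial transcripts, their share of the family was 11.2% in old tumour and 10.2% in young tumour, against 10.2% in old sham and 9.64% in young sham cells.

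**Figure D1:**
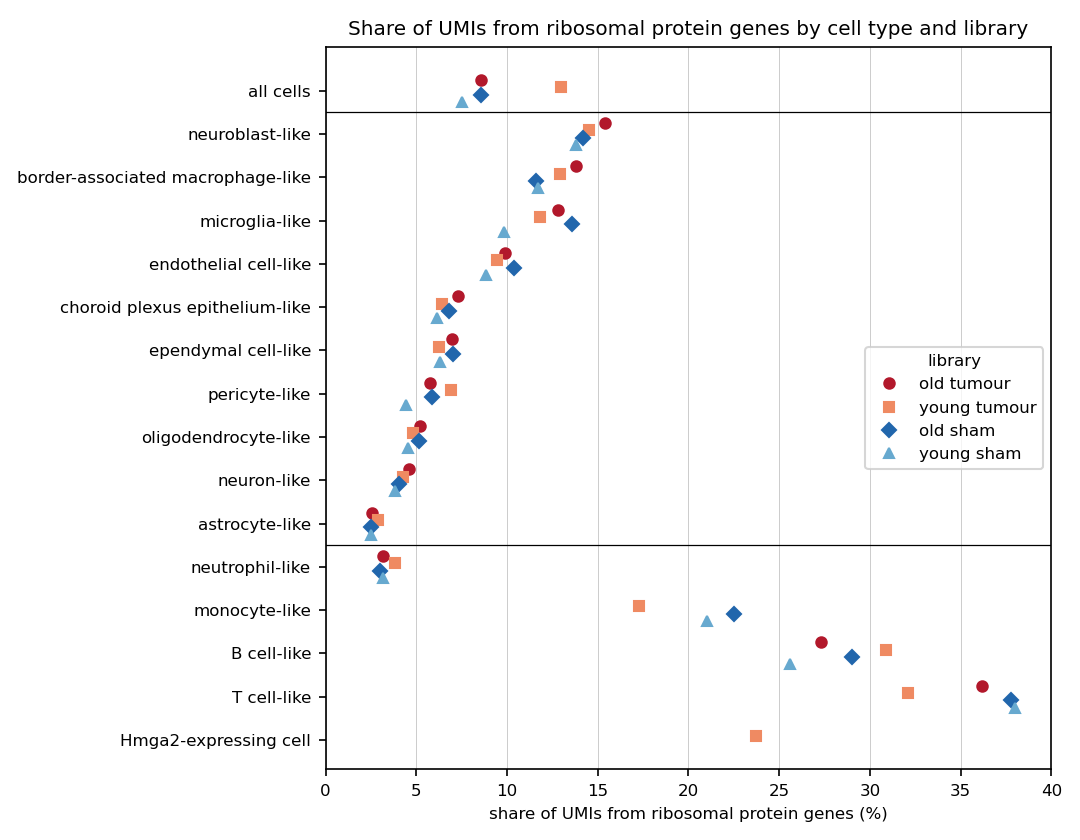
Share of UMIs from the 85 ribosomal protein genes (horizontal axis, percent) in all cells, in the 10 gated cell types with at least 50 cells in every library, and in smaller gated populations, with 1 point per library of at least 20 cells. Astrocyte-like cells lie between 2.49% and 2.86% and neuroblast-like cells between 13.8% and 15.4%, while the young tumour library stands apart in all cells at 12.99%.

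T cell-like, B cell-like and monocyte-like cells, too few for the comparison over all libraries, lay above all 10 of these types. T cell-like cells gave 36.2% (145 cells, exact 95% interval 36.1% to 36.3%) in old tumour and 32.1% (277 cells, 32.0% to 32.2%) in young tumour, against 37.8% (92 cells, 37.6% to 38.0%) in old sham and 38.0% (38 cells, 37.7% to 38.2%) in young sham. B cell-like cells gave 27.3% (51 cells) in old tumour and 30.9% (52 cells) in young tumour, against 29.0% (38 cells) in old sham and 25.6% (82 cells) in young sham. Monocyte-like cells gave 21.5% (15 cells) in old tumour and 17.3% (126 cells) in young tumour, against 22.5% (20 cells) in old sham and 21.0% (26 cells) in young sham. Neutrophil-like cells gave 3.14% (57 cells) in old tumour and 3.82% (37 cells) in young tumour, against 2.97% (21 cells) in old sham and 3.17% (104 cells) in young sham. In every library T cell-like, B cell-like and monocyte-like cells lay above neutrophil-like cells.

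The edgeR quasi-likelihood test asked, gene by gene, whether a type differed from the mean of the other types, with the library as a block and a call at an adjusted p under 0.05 and a fold of at least 1.5. In microglia-like cells 77 of the 82 tested genes were called higher and 0 lower, where 31.5% and 14.8% of all 14094 tested genes were. In border-associated macrophage-like cells 70 were higher and 0 lower (17.6% and 17.9% of all genes), and in neuroblast-like cells 65 and 0 (23.8% and 24.1%). In astrocyte-like cells 0 were higher and 81 lower (31.2% and 14.8% of all genes), and in neuron-like cells 0 and 81 (29.1% and 24.2%). Endothelial-like cells had 32 higher and 0 lower (26.4% and 14.7%), oligodendrocyte-like cells 0 and 17 (26.0% and 17.8%), pericyte-like cells 0 and 72 (13.1% and 12.9%) and ependymal-like cells 1 and 8 (29.6% and 18.5%). Choroid plexus-like cells had 69 higher and 0 lower (30.9% and 25.6%), although their share of UMIs was below that of the other types: with scaling to total UMIs in place of TMM, the counts were 4 and 4 (16.4% and 45.1% of all genes). The same change of scaling left 5 lower calls in pericyte-like cells (3.28% of all genes) and gave 46 in oligodendrocyte-like cells (22.1%). DESeq2 left 7 higher calls in endothelial-like cells (20.7% of all genes). Without the young tumour library, oligodendrocyte-like cells had 9 lower calls (13.1% of all genes), and without the young sham library ependymal-like cells had 14 (18.7%). Median log2 fold changes of the 82 genes ran from -1.59 in astrocyte-like cells, where the median of all genes was 0.12, to 1.25 in microglia-like cells, where it was also 0.12.

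The genes at the ends of these comparisons were not the same in each type. Rplp1, a protein of the stalk that recruits elongation factors, led in microglia-like cells with a log2 fold change of 2.04 (SE 0.07, edgeR adjusted p = 2.34e-29), followed by Rps12 at 1.91 (adjusted p = 5.44e-27). Rps29, a small zinc-binding protein of the small subunit, led in border-associated macrophage-like cells at 2.23 (SE 0.07, edgeR adjusted p = 7.72e-30). Rpl38, whose loss in mice disturbs the axial skeleton, led in endothelial-like cells at 1.25 (SE 0.08, edgeR adjusted p = 7.52e-19) and was the most lowered in pericyte-like cells at -1.39 (SE 0.12, adjusted p = 2.68e-13). Rps26 led in neuroblast-like cells at 1.82, with Rplp0, the core of the same stalk, at 1.68. Rps3 and the classical S6 kinase substrate Rps6 were lowest in astrocyte-like cells, both at -1.97. Rpl10a was lowest in oligodendrocyte-like cells at -0.97 and Rps12 in ependymal-like cells at -0.91.

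The composition of the family was next taken on its own, as each gene's share of the family's UMIs. For 66 of the 82 genes, the highest and lowest of the 10 types differed by less than 2-fold in at least 1 library. For the other 16, they differed by at least 2-fold in every library. The same count was not made over all genes, so it does not show whether 16 is many or few. Low counts can widen such ranges, and among the 16 Rpl7l1 fell to 10 UMIs. The paralogs were among the most variable. Rps27l, a target of p53 in human and mouse cells, made up 0.531% of the family in old tumour and 0.502% in young tumour, against 0.549% in old sham and 0.557% in young sham choroid plexus-like cells. In neuron-like cells it made up 0.120%, 0.0788%, 0.0661% and 0.0755% in the same order of libraries, from 12 to 31 UMIs each. The ranges did not overlap.

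Rpl22l1 had its highest share in neuron-like cells, where it made up 0.764% of the family in old tumour and 0.860% in young tumour, against 0.944% in old sham and 0.961% in young sham. Its partner Rpl22, whose protein represses Rpl22l1 in mouse cells, had its lowest share there, with 0.255% in old tumour and 0.335% in young tumour, against 0.358% in old sham and 0.340% in young sham neuron-like cells. Neuron-like cells were thus the highest type for Rpl22l1 and the lowest for Rpl22. Such an opposite order did not hold in every type. Rpl22 was highest in ependymal-like cells (mean 0.747%), where Rpl22l1 was also called higher relative to the family, as given below. In microglia-like cells Rpl22l1 stood at 0.166%, 0.152%, 0.167% and 0.156% and Rpl22 at 0.620%, 0.630%, 0.641% and 0.608%, in the order old tumour, young tumour, old sham and young sham. For both genes the 4 libraries of microglia-like cells and the 4 of neuron-like cells did not overlap.

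**Figure D2:**
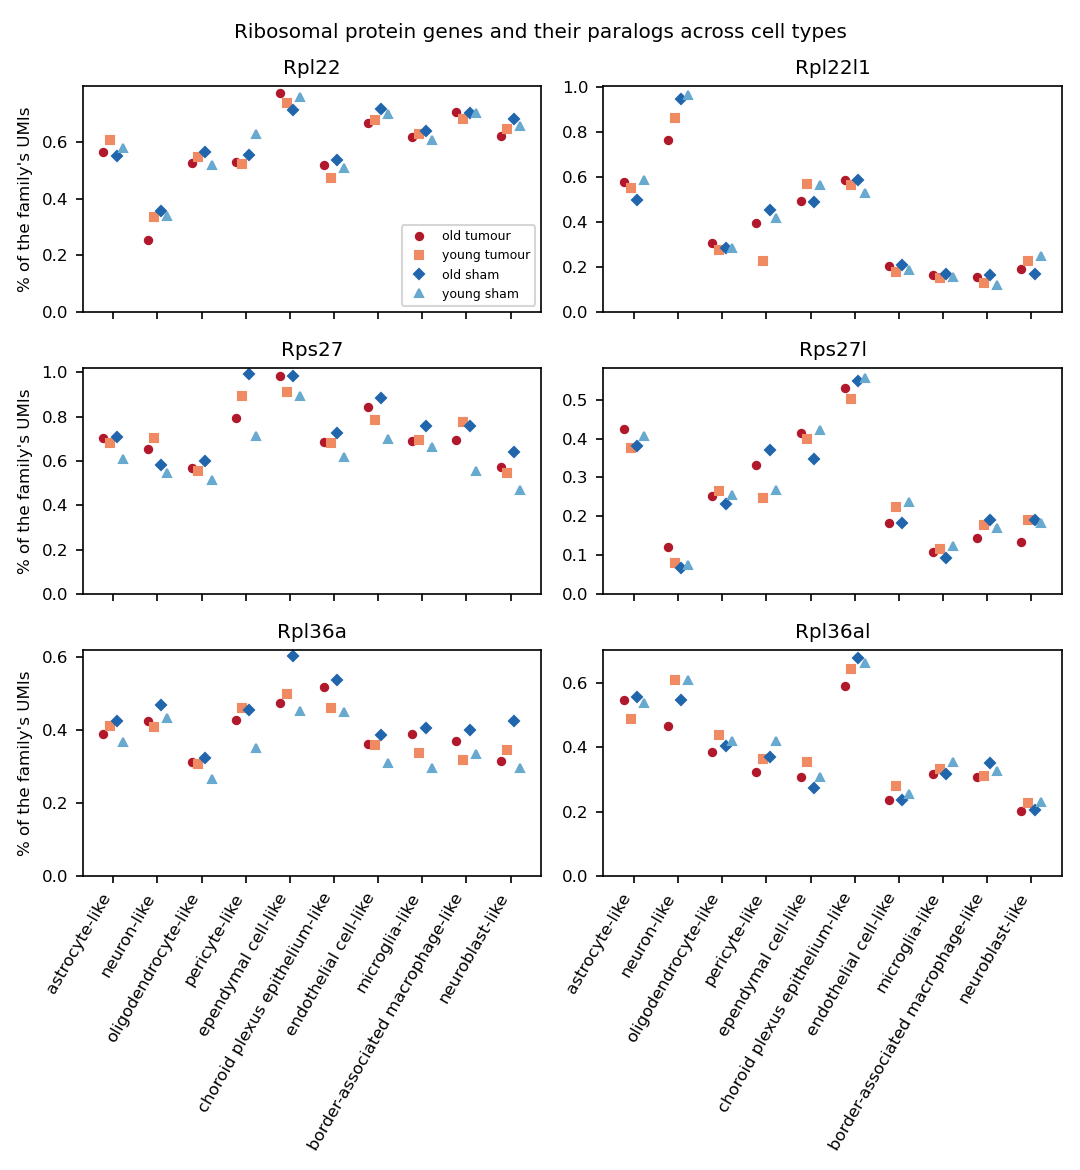
Share of the family's UMIs (vertical axes, percent, from 0) of 3 ribosomal protein genes (left) and their paralogs (right) in the 10 gated cell types, ordered by the family's share of all UMIs, with 1 point per library. Neuron-like cells are lowest for Rpl22, at 0.255% to 0.358%, and highest for Rpl22l1, at 0.764% to 0.961%; levels of different genes are not compared.

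The edgeR fit was then scaled to the family's own total, a choice made after the data had been seen. Except for Rpl22, the genes named from it, here and in the next paragraph, were among those with the widest ranges over these same types and libraries. Their adjusted p values come from the same sums and are no independent test of these differences. Rpl22l1 was called in 8 of the 10 types, higher in neuron-like cells (log2 fold change 1.59, SE 0.09, edgeR adjusted p = 3.88e-21), choroid plexus-like (0.88), astrocyte-like (0.84) and ependymal-like cells (0.77), and lower in border-associated macrophage-like (-1.33), microglia-like (-1.15), endothelial-like (-0.84) and neuroblast-like cells (-0.69). Rpl22 was called in 1 type, lower in neuron-like cells at -0.94 (SE 0.08, edgeR adjusted p = 3.45e-14). Rps27l was called in 5 types, among them higher in choroid plexus-like cells at 1.38 (SE 0.08, edgeR adjusted p = 9.03e-20) and lower in neuron-like cells at -1.59 (SE 0.14, adjusted p = 1.64e-13). Rpl36al, an autosomal copy of the X-linked Rpl36a, was higher in choroid plexus-like cells at 0.87 and neuron-like cells at 0.64 and lower in neuroblast-like cells at -0.87 and endothelial-like cells at -0.63. Rpl7l1 was higher in astrocyte-like cells at 1.36 and pericyte-like cells at 0.69, and lower in border-associated macrophage-like cells at -0.78 and neuroblast-like cells at -0.66.

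Core genes without a measured paralog also differed. Rpl41, which encodes one of the shortest known proteins, made up 2.48% of the family in old tumour and 2.52% in young tumour, against 2.94% in old sham and 2.39% in young sham choroid plexus-like cells. In microglia-like cells it made up 0.751%, 0.757%, 0.771% and 0.675% in the same order. Rpsa, which also serves as a laminin receptor at the cell surface, was highest in oligodendrocyte-like cells at 2.25%, 2.38%, 2.29% and 2.51%, and lowest in choroid plexus-like cells at 0.790%, 0.910%, 0.757% and 0.835%. Relative to the family, Rpl41 was higher in choroid plexus-like cells by a log2 fold change of 1.28 (SE 0.06, edgeR adjusted p = 2.25e-24). Rpsa was higher in oligodendrocyte-like cells by 0.89 (SE 0.06, edgeR adjusted p = 1.58e-18). Rplp1 was higher in microglia-like cells by 0.78 and border-associated macrophage-like cells by 0.87, and lower in neuroblast-like cells at -1.03, whereas Rplp0 of the same stalk was higher in neuroblast-like cells by 0.85 and lower in neuron-like cells at -1.09.

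Per type, between 1 and 10 of the 82 genes were called relative to the family. In microglia-like cells 3 were higher and 7 lower, where 12.2% and 49.9% of all 14094 tested genes were. The counts were 4 and 4 in border-associated macrophage-like cells (9.80% and 53.5% of all genes), 3 and 4 in neuroblast-like cells (12.1% and 47.2%) and 1 and 3 in endothelial-like cells (16.7% and 27.5%). In choroid plexus-like cells 4 were higher and 1 lower (17.2% and 43.4%), in ependymal-like cells 5 and 1 (34.2% and 12.6%) and in oligodendrocyte-like cells 2 and 1 (38.0% and 13.7%). In neuron-like cells 4 were higher and 4 lower (66.7% and 5.41%), in astrocyte-like cells 6 and 0 (80.9% and 1.39%) and in pericyte-like cells 1 and 0 (30.9% and 1.60%). Without the young tumour or the old sham library the pericyte call, Rpl7l1, was lost, and without the young tumour library border-associated macrophage-like cells had 7 lower calls (43.6% of all genes). These backgrounds carry the family's own level, since all other genes move against it when the family is the scale.

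**Figure D3:**
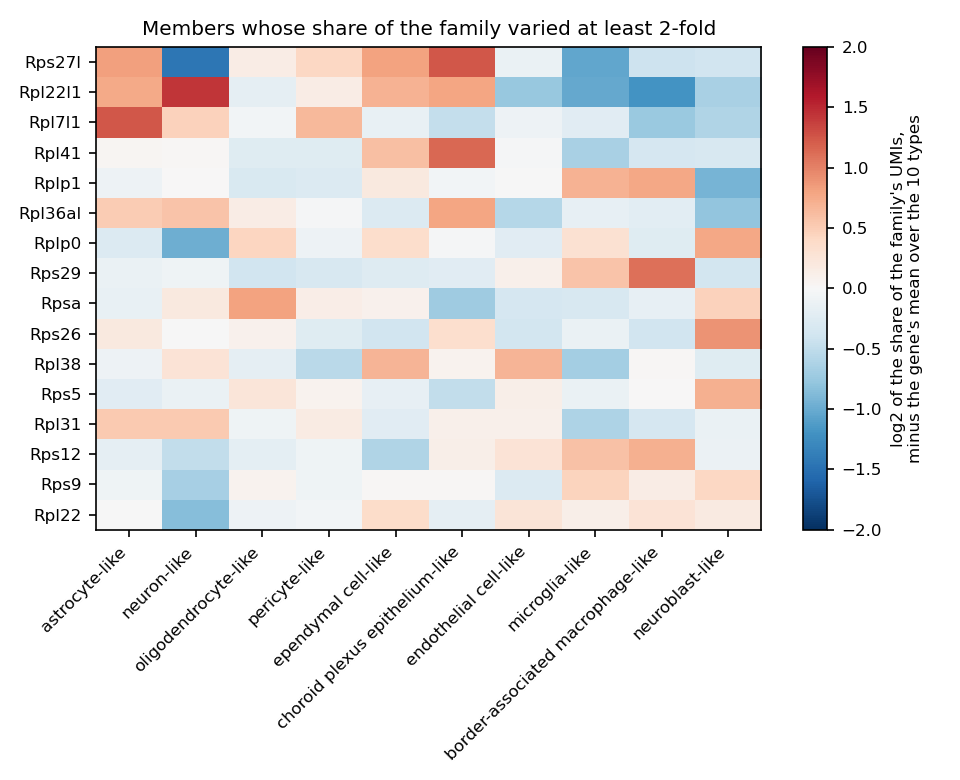
Log2 of each gene's share of the family's UMIs, as a mean over the 4 libraries and minus the gene's mean over the 10 types (colour scale, red above and blue below), for the 16 genes whose highest and lowest types differed at least 2-fold in every library. The 3 top rows are the paralogs Rps27l, Rpl22l1 and Rpl7l1.

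Between whole libraries, the family's share of UMIs was 8.55% in old tumour cells and 12.99% in young tumour cells, against 8.55% in old sham cells and 7.50% in young sham cells. The ratio was 1.73 (exact conditional 95% interval 1.73 to 1.73) for young tumour over young sham and 0.658 (0.658 to 0.659) for old tumour over young tumour. It was 1.14 (1.14 to 1.14) for old sham over young sham and 1.00 (0.999 to 1.00) for old tumour over old sham. Rpl and Rps genes moved alike: the Rpl share over the Rps share was 1.34 in old tumour and 1.30 in young tumour, against 1.33 in old sham and 1.33 in young sham cells.

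Part of the high share of the young tumour library came with the Hmga2-gated cells. They held 18.4% of its UMIs and 33.5% of its ribosomal protein UMIs, with a share of 23.7% (23.6% to 23.7%). Without them the young tumour library stood at 10.6%, and the ratio of old to young tumour was 0.808 in place of 0.658. Cells outside every gate held 26.0% of the ribosomal protein UMIs of young tumour. Their share was 9.13% in old tumour and 13.3% in young tumour, against 9.65% in old sham and 8.82% in young sham. A second measure took only the 10 gated cell types and gave each the same weight in every library. It thus left out the Hmga2-gated cells, the cells outside every gate and the smaller types such as T cell-like cells. By it the shares were 8.14% in old tumour and 7.70% in young tumour, against 8.38% in old sham and 6.70% in young sham, and the ratio of old to young tumour was 1.06. Other types differed in number too: T cell-like cells were 1.48% of old tumour and 2.65% of young tumour cells.

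Gene by gene, 66 of the 82 measured genes were at least 1.5-fold higher in young tumour than in young sham cells, where 9.65% of all 10873 measured genes were, and 0 were lower (9.89% of all genes). The median log2 ratio was 0.77, against -0.09 for all measured genes. Without the Hmga2-gated cells 22 were past that fold (4.16% of all genes). In old tumour against young tumour, 0 were higher (8.68% of all genes) and 37 at least 1.5-fold lower (11.3%), and 2 were lower without the Hmga2-gated cells (5.88%). In old sham against young sham, 2 were higher (5.46% of all genes) and 0 lower (4.18%), and in old tumour against old sham 0 were higher (3.47%) and 0 lower (4.95%). The measure over both ages, the old tumour-to-sham ratio over the young one, was at least 1.5-fold higher for 0 genes (11.6% of all genes) and lower for 65 (13.6%).

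The 2 genes past the fold in old sham against young sham were Rps21 and Rplp2. Rps21 had 843 and 1107 CPM in old and young tumour, against 968 and 613 CPM in old and young sham cells, and its ratio between the sham libraries was 1.58 (1.56 to 1.60). Rplp2, the partner of Rplp1 in the stalk, had 672 and 1019 CPM in old and young tumour, against 809 and 539 CPM in old and young sham cells (interval of the ratio between the sham libraries 1.48 to 1.52). For both genes the young sham library was the lowest and the young tumour library the highest. With a stricter cell filter Rps21 kept the fold, at 1.56, and Rplp2 lost it, at 1.48, while Rps27rt, a near-copy of Rps27, passed it downwards at 0.658 (5.40% of all genes were higher and 4.56% lower).

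Rplp0 had 1096 CPM in old tumour and 2775 CPM in young tumour, against 1014 CPM in old sham and 1059 CPM in young sham cells. Only the young tumour library was high, and its ratio to young sham was 2.62 (2.60 to 2.65). Rps2, near the mRNA entry of the small subunit, had 962 and 2105 CPM in old and young tumour, against 813 and 862 CPM in old and young sham cells, with a ratio of 2.44 (2.42 to 2.47) for young tumour over young sham. Rpl32 had 1254 and 2597 CPM in old and young tumour, against 1252 and 1042 CPM in old and young sham cells, with a ratio of 2.49 (2.47 to 2.52). In the Hmga2-gated cells of the young tumour library, Rplp0 made up 3.23% of the family, Rpl32 2.58% and Rps2 2.50%, against 1.38%, 1.65% and 0.865% in its microglia-like cells. Rpl22l1 was the one gene that did not differ between old tumour (277 CPM) and young tumour (275 CPM) by more than counting error, with a ratio of 1.01 (0.987 to 1.03).

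**Figure D4:**
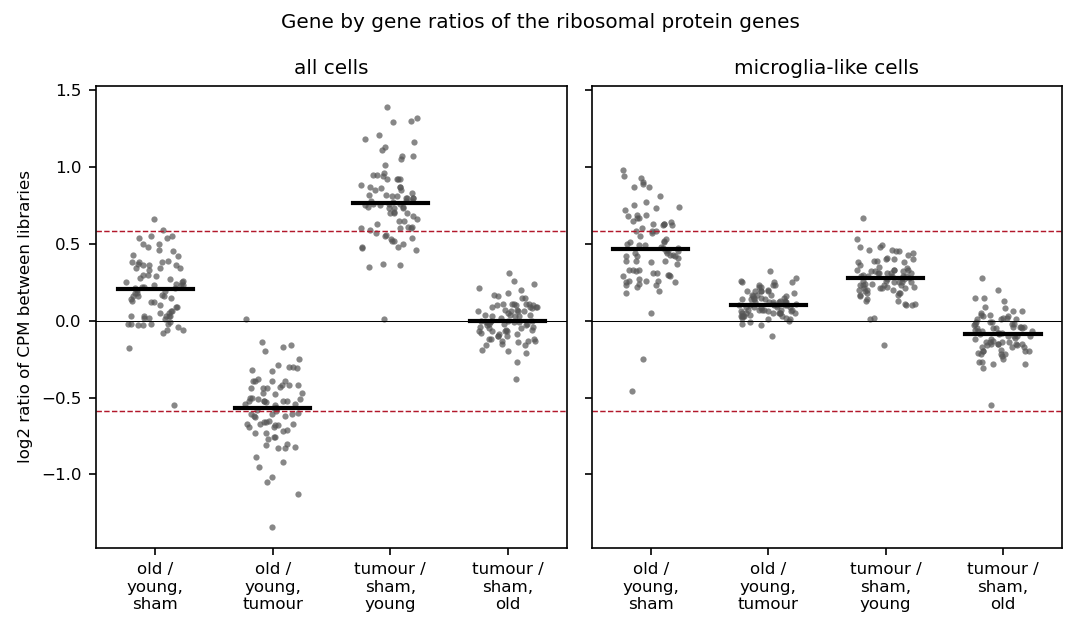
Log2 ratio of CPM between 2 libraries for each of the 82 measured ribosomal protein genes (points) in all cells (left) and microglia-like cells (right), with the median as a black bar and a fold of 1.5 either way as dashed red lines. In all cells the medians are 0.20, -0.57, 0.77 and -0.00 from left to right, and in microglia-like cells 0.46, 0.10, 0.28 and -0.08. The comparisons share libraries and are not independent.

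Other genes of the pathway were compared in the same way. In young tumour against young sham 9.65% of all measured genes were higher and 9.89% lower. The young tumour counts below include the Hmga2-gated cells, and they were not repeated without those cells. Of 38 measured ribosome biogenesis genes, which act in the nucleolus to make and assemble ribosomes, 21 were at least 1.5-fold higher and 0 lower in young tumour than in young sham cells, with a median log2 ratio of 0.61. Of 25 elongation factor and other TOP genes 9 were higher and 0 lower (median 0.46). Of 23 measured mTORC1 and S6 kinase pathway genes 2 were higher and 1 lower (median 0.06), and of 77 mitochondrial ribosomal protein genes 1 was higher and 0 lower (median 0.19). In old sham against young sham 0 genes of these 4 lists were past that fold. In microglia-like cells the same comparison of sham libraries, where 4.80% of all genes were higher and 4.85% lower, gave 3 higher and 0 lower of 25 elongation factor and other TOP genes (median 0.22), 2 and 0 of 37 ribosome biogenesis genes (0.13), 1 and 0 of 22 mTORC1 and S6 kinase pathway genes (-0.13) and 0 and 2 of 77 mitochondrial ribosomal protein genes (-0.17).

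Within single cell types the libraries were compared next. In microglia-like cells, the largest gated population, the family took 12.8% of UMIs in old tumour (2385 cells) and 11.8% in young tumour (2916 cells), against 13.6% in old sham (2488 cells) and 9.81% in young sham (3659 cells). The young sham library was the low one. Ratios were 1.39 (1.38 to 1.39) for old sham over young sham, 1.08 (1.08 to 1.08) for old tumour over young tumour, 1.21 (1.20 to 1.21) for young tumour over young sham and 0.942 (0.940 to 0.944) for old tumour over old sham. Median UMIs per microglia-like cell were 4679, 3166, 4947 and 3613 in old tumour, young tumour, old sham and young sham, and among cells of 2000 to 6000 UMIs the ratio of old sham to young sham was 1.25.

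Across the 10 types, the ratio of old sham to young sham ran from 0.987 in astrocyte-like to 1.39 in microglia-like cells and was above 1 in 8 types. Old tumour over young tumour ran from 0.827 in pericyte-like to 1.14 in choroid plexus-like cells and was above 1 in 8. Young tumour over young sham ran from 0.988 in ependymal-like to 1.56 in pericyte-like cells, above 1 in 9, and old tumour over old sham from 0.942 in microglia-like to 1.20 in border-associated macrophage-like cells, above 1 in 6. The value in pericyte-like cells was the only one past a fold of 1.5, with shares of 5.74% in old tumour and 6.93% in young tumour, against 5.85% in old sham and 4.44% in young sham, from 63 to 117 cells each. All of these ratios pool UMIs, and medians over single cells did not always keep the direction. In neuron-like cells the medians were 2.74% in old and 3.55% in young tumour, against 2.06% in old and 2.99% in young sham, lower in old both times. In pericyte-like cells they were 5.22% in old and 4.95% in young tumour, against 4.84% in old and 4.14% in young sham, higher in old both times. Marker lists of other cells also differed between these libraries, though not all in the order of the shares. The 7 neutrophil genes summed to 35.1 CPM in old tumour and 15.1 in young tumour, against 0 in old sham and 10540 in young sham pericyte-like cells, with 5, 4, 7 and 2 of them at 0 in that order. The 7 monocyte genes summed to 10.0 CPM in old tumour and 394 in young tumour, against 0 in old sham and 456 in young sham, with 5, 5, 7 and 4 at 0. Neutrophil-like cells themselves had low shares of the family (given above), and the part of these lists in the pericyte ratios was not tested.

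In microglia-like cells 26 of the 82 genes were at least 1.5-fold higher in old sham than in young sham (4.80% of all 8316 measured genes) and 0 lower (4.85%), with a median log2 ratio of 0.46, against -0.06 for all measured genes. In young tumour against young sham 1 was higher (1.97% of all genes) and 0 lower (1.31%). In old tumour against young tumour 0 were higher (2.02%) and 0 lower (1.90%), and in old tumour against old sham 0 were higher (2.72%) and 0 lower (3.13%). The old tumour-to-sham ratio over the young one was at least 1.5-fold higher for 0 genes (3.33%) and lower for 15 (4.41%). Rpl23a, a protein at the exit of the peptide tunnel, had 721 CPM in old tumour and 607 CPM in young tumour, against 1058 CPM in old sham and 536 CPM in young sham microglia-like cells. Its ratio was 1.97 (1.92 to 2.03) for old sham over young sham and 0.682 (0.664 to 0.701) for old tumour over old sham, so the old sham library alone was high. Rps21 had 1278 and 1094 CPM in old and young tumour, against 1537 and 801 CPM in old and young sham, a ratio of 1.92 (1.88 to 1.97) between the sham libraries. Rpl38 had 712 and 608 CPM in old and young tumour, against 783 and 420 CPM in old and young sham (ratio between the sham libraries 1.86, 1.80 to 1.93).

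Rpl35 was the gene past the fold in young tumour against young sham, with 453 and 438 CPM in old and young tumour, against 484 and 275 CPM in old and young sham microglia-like cells (ratio 1.59, 1.52 to 1.66). Here the young sham library alone was low. At the other end, Rpl7l1, which acts in ribosome assembly, had 101 and 99.9 CPM in old and young tumour, against 83.1 and 98.6 CPM in old and young sham, a ratio of 0.843 (0.777 to 0.915) between the sham libraries. Rps27rt, whose reads may be those of Rps27, had 22.4 and 24.0 CPM in old and young tumour, against 19.5 and 26.8 CPM in old and young sham (0.728, 0.617 to 0.858).

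Markers that moved with the libraries in microglia-like cells were summed over each list. The 7 microglia genes of the gate itself summed to 10121 CPM in old tumour and 11277 in young tumour. Their sums were 9333 CPM in old sham and 12867 in young sham, with 0 of them at 0 in any library. This order of libraries was the reverse of that of the family's shares. The 23 immediate early genes, a list that responds to handling as well as to stimulation, summed to 19052 CPM in old tumour and 13671 in young tumour, against 38877 in old sham and 27470 in young sham, with 0 of them at 0 in any library. Among microglia-like cells with under 1% of UMIs from that list, the family took 12.8% in old tumour (1209 cells), 12.2% in young tumour (1688 cells), 13.7% in old sham (428 cells) and 9.53% in young sham (1457 cells), so the ratio of old sham to young sham was 1.44. The Hmga2 list summed to 38.3, 75.4, 35.9 and 38.1 CPM in old tumour, young tumour, old sham and young sham, with 0 of 7 at 0 in each. The 5 erythroid genes summed to 11.0, 501, 43.3 and 153 CPM in the same order, with 1 at 0 in old tumour. Some lists of other immune cells are given here, and they went both ways. The 7 neutrophil genes summed to 175, 171, 166 and 215 CPM (2, 1, 1 and 1 at 0). The 7 B cell genes summed to 235, 263, 248 and 272 CPM (4, 3, 5 and 4 at 0). Both of these were highest in young sham, whereas the next 3 lists were each highest in young tumour. The 7 genes of border-associated macrophages summed to 22.4, 83.0, 12.4 and 18.0 CPM (2, 1, 1 and 1 at 0), the 7 of monocytes to 15.5, 48.9, 11.6 and 15.7 CPM (1, 1, 0 and 0 at 0) and the 7 of T cells to 1.37, 8.44, 1.42 and 1.11 CPM (2, 0, 1 and 3 at 0). The part of these lists and of the microglia, Hmga2 and erythroid lists in the result was not tested. Gm42418 and AY036118 took 3.26%, 3.06%, 1.07% and 3.30% of UMIs in the same order, and without them the family's shares were 13.3%, 12.2%, 13.8% and 10.1%.

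The ratios between sham libraries were set against the length of the coding sequence (APPRIS principal transcripts of GENCODE M21, 75 bases in Rpl41 to 1257 in Rpl4). In microglia-like cells, the 40 genes with a coding sequence under 453 bases had a median log2 ratio of 0.63 for old sham over young sham and the 42 longer ones 0.33. Across the 82 genes Spearman's rho between coding length and this ratio was -0.65, given as a description since the genes share 2 libraries. It was -0.68 in endothelial-like, -0.62 in oligodendrocyte-like and -0.55 in astrocyte-like cells. Over all other measured genes in the same range of coding length it was 0.07 in microglia-like, 0.15 in endothelial-like, 0.13 in oligodendrocyte-like and 0.20 in astrocyte-like cells. For old tumour over old sham the family's rho had the opposite sign, with 0.44 in microglia-like, 0.68 in endothelial-like and 0.59 in oligodendrocyte-like cells, and 0.10 in astrocyte-like cells. For young tumour over young sham it was -0.58 in microglia-like, -0.69 in endothelial-like, -0.77 in oligodendrocyte-like and -0.63 in astrocyte-like cells. Between the 2 tumour libraries, old over young, it was weaker and mixed in sign, with -0.21, 0.04, 0.25 and -0.22 in the same order of types.

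Taken library by library, the 41 shorter genes made up 42.4% of the family in old tumour and 41.5% in young tumour, against 44.1% in old sham and 39.7% in young sham microglia-like cells. In endothelial-like cells the values were 41.7% and 41.6% in old and young tumour, against 44.0% and 40.2% in old and young sham. In oligodendrocyte-like cells they were 36.1% and 36.4%, against 37.9% and 34.5%. The old sham library was the highest in 10 of the 10 types and the young sham library the lowest in 9, the exception being ependymal-like cells with 40.5% in young tumour and 40.6% in young sham. With 1 library per group, age and the making of each library cannot be told apart in this pattern, and old sham was also the library with the lowest share of Gm42418 and AY036118 in all 10 types.

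**Figure D5:**
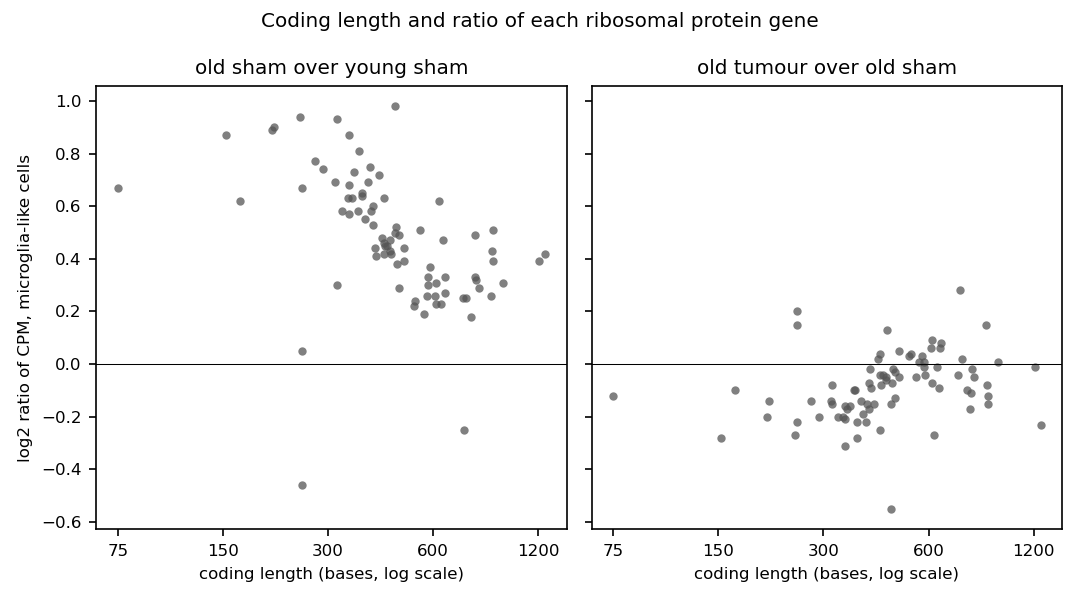
Log2 ratio of CPM in microglia-like cells (vertical axis) against coding length (bases, log scale) for the 82 measured ribosomal protein genes, for old sham over young sham (left) and old tumour over old sham (right). On the left shorter genes lie higher (rho -0.65), and on the right they lie lower (rho 0.44); both panels share the old sham library.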

How the data were processed

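The 10x 3′ libraries, 1 per group, were used as the authors' deposited matrices of UMI counts per gene and barcode. The submitters' processing notes name Cell Ranger 3.0.2, Seurat 2.3.4 and mm10, and the matrix headers name Cell Ranger 6.1.0. Barcodes were kept from 500 UMIs and 200 genes upward and up to 20% mitochondrial UMIs, and the highest Scrublet scores (0.8% per 1000 barcodes) were removed. Cells were gated by markers, with at least 50 cells per library needed to compare a type. Ratios of UMI shares between libraries were given with exact conditional intervals at 95%, which cover counting error only, and a fold of 1.5 was used to count genes. Types were compared over the 4 libraries with edgeR 4.0.16 (quasi-likelihood, TMM, library as block, Benjamini-Hochberg adjusted p under 0.05 and a fold of at least 1.5) and exact sign-flip tests; DESeq2 1.42.0 was an alternative. The library pairs the types, since the types of 1 library come from the same cell suspension. On simulated counts for microglia-like cells, edgeR recovered 50 of 50 genes at each of the folds 0.25, 0.5, 2 and 4 and called 5 of 11458 unchanged genes. All types were simulated from the same pooled profile with few genes changed. The simulation therefore did not test the scaling between types that differ in many genes. Genes were named by a rule on the highest and lowest ratios, family shares and fold changes, with all paralogs. The members and lists were chosen with earlier results of these data known.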

Additional observations from a re-analysis of the deposited data

Results flagged for a closer look

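The share of UMIs from ribosomal protein genes moved in opposite directions, with both 95% counting intervals clear of 1, in 4 pairs of comparisons, and none of these differences was tested, since each group was 1 library. In all cells the ratio of old to young was 0.658 in tumour libraries and 1.14 in sham libraries. In microglia-like cells the ratio of tumour to sham was 0.942 at the old age and 1.21 at the young age, and in endothelial-like cells it was 0.954 and 1.07. In endothelial-like cells the 23 immediate early genes summed to 7368 CPM in old tumour and 6189 in young tumour, against 17115 in old sham and 5935 in young sham (0, 0, 0 and 1 of them at 0). The 5 erythroid genes summed to 41.0 and 1230 CPM in old and young tumour, against 738 and 221 in old and young sham (1, 0, 0 and 0 at 0). The 7 astrocyte genes summed to 121 and 201 CPM in old and young tumour, against 128 and 398 in old and young sham, with 0 at 0. In pericyte-like cells the ratio of old to young was 0.827 in tumour and 1.32 in sham libraries. These ratios pool the UMIs of all cells of the type. The median share of single pericyte-like cells was 5.22% in old tumour and 4.95% in young tumour, against 4.84% in old sham and 4.14% in young sham. By the medians old was above young in both pairs, so the opposite direction was not kept. The 7 neutrophil genes summed to 35.1 and 15.1 CPM in old and young tumour, against 0 and 10540 CPM in old and young sham pericyte-like cells (5, 4, 7 and 2 at 0), and the 7 monocyte genes to 10.0 and 394 CPM in old and young tumour, against 0 and 456 CPM in old and young sham (5, 5, 7 and 4 at 0). The 23 immediate early genes summed there to 1573 and 1711 CPM in old and young tumour, against 10553 and 2123 in old and young sham (5, 6, 3 and 2 at 0). The part of these lists in the ratios was not tested.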

How the results depend on the processing

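With 1 library per group, ratios between groups have no replicate error, and even small shifts exceed their counting intervals; causes of the shifts below were not tested. Depth limits rare types most, with 51 border-associated macrophage-like cells in the smallest library. Of 80 ratios of named genes, 313 of 320 values under alternatives kept their direction, 5 lost the fold of 1.5 and 2 gained it.

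In all cells, the share ratio of old sham to young sham was 1.14 with doublets kept, 1.12 with a stricter cell filter, 1.13 as a mean of single cells, 1.13 without mitochondrial genes and 1.25 with fixed cell type weights. Old tumour over young tumour was 0.651, 0.665, 0.840 and 0.667 under the first 4 of these settings, 0.808 without Hmga2-gated cells and, with the direction turned, 1.06 with fixed weights. Young tumour over young sham was 1.75, 1.74, 1.39 and 1.72 under the first 4 settings, 1.41 without Hmga2-gated cells and 1.15 with fixed weights. Old tumour over old sham was 0.997, 1.04, 1.04 and 1.02 under the first 4 and 0.971 with fixed weights.

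In microglia-like cells, old sham over young sham was 1.38 with doublets kept, with the stricter filter, as a mean of single cells and without mitochondrial genes, 1.25 in cells of 2000 to 6000 UMIs and 1.44 in cells with under 1% immediate early UMIs, the last chosen after seeing the data. Old tumour over young tumour was 1.07 with doublets kept, 1.08 with the stricter filter, 1.14 as a mean of single cells and 1.05 with under 1% immediate early UMIs. Young tumour over young sham was 1.14 as a mean of single cells, 1.20 with a gate of at least 4 markers, 1.09 in cells of 2000 to 6000 UMIs and 1.28 with under 1% immediate early UMIs. Old tumour over old sham was 0.949 without mitochondrial genes, 0.939 with 4 markers and 0.937 with under 1% immediate early UMIs.

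Of genes past the fold in all cells, the stricter filter gave 1 higher and 1 lower in old sham against young sham. Leaving out Hmga2-gated cells gave 2 lower in old tumour against young tumour and 22 higher in young tumour against young sham. In old tumour against old sham, asking only for 1 UMI in each library gave 1 lower, and in microglia-like cells median-centred scaling gave 1 lower. The share of all genes was not computed for either of these last settings, so their counts show only how calls in the family moved.

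In the edgeR comparison of types, scaling to total counts gave 46 lower in oligodendrocyte-like, 5 lower in pericyte-like, 4 higher and 4 lower in choroid plexus-like, 3 higher and 2 lower in ependymal-like and 1 higher in neuron-like cells. DESeq2 gave 46 lower in oligodendrocyte-like, 7 higher in endothelial-like, 38 lower in pericyte-like and 3 higher and 2 lower in ependymal-like cells. Without a filter on low counts there was 1 higher in astrocyte-like cells, 1 higher and 6 lower in oligodendrocyte-like cells and 0 higher and 15 lower in ependymal-like cells. With the adjusted p alone there were 2 higher and 57 lower in oligodendrocyte-like, 71 higher and 1 lower in endothelial-like, 6 higher and 45 lower in ependymal-like and 1 lower in neuroblast-like cells. A gate of at least 4 markers gave 1 higher in oligodendrocyte-like cells. Shares of all genes called under these settings, and those of the next paragraph, are given above for some of them only. Without such a share a count shows only how the calls in the family moved. Dropping the fold can only add calls, among all genes as in the family.

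Leaving out 1 library at a time gave 1 to 1 higher and 9 to 16 lower in oligodendrocyte-like cells and 0 to 1 higher and 8 to 14 lower in ependymal-like cells. Relative to the family, it gave 4 to 7 lower in border-associated macrophage-like, 0 to 1 higher and 0 to 2 lower in pericyte-like, 1 to 3 lower in choroid plexus-like and 1 to 2 lower in ependymal-like cells. Without the library block, 1 gene was lower relative to the family in pericyte-like cells, against 0 with it; with TMM the counts without the block included 30 higher in endothelial-like and 64 higher in neuroblast-like cells, and no other count moved by over 1.5 times.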
